A study of Mus musculus with 39 samples.

Results

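Pkhd1 is 1 of 10061 gene symbols in the deposited expression table, and its level was described in each of 39 single liver cells. The gene was chosen by its symbol and is carried by 1 RefSeq transcript row. The genes that accompany it were read from the 7 cells in which it reached 100 CPM (counts per 1000000 reads, back-calculated from the deposited log2 values). The cells were GFP-positive cells sorted from the liver of adult mice of the genotype Krt19CreERT/Rosa26CAG-EGFP and picked singly into lysis buffer. In these mice an inducible Cre under Krt19, a keratin gene of bile duct epithelium, turns on a GFP reporter, so the label marks a cell that used Krt19 or one descended from it. The label text names the cells as Krt19+ cells and their progeny and gives no animal, sort, plate, sex or inducing treatment, and all 39 cells form 1 group. With no named animal there is no replicate, so no test between cells was made, and every difference below describes these cells.

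Pkhd1 encodes fibrocystin, also called polyductin, a very large membrane protein with a single membrane pass. It sits in the primary cilium, the sensory antenna of bile duct and kidney tubule cells. Loss of the human gene causes autosomal recessive polycystic kidney disease with malformed, dilated bile ducts and liver fibrosis. In liver the gene is known as one of the duct epithelium.

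Pkhd1 was read at very different depths of signal from cell to cell. It was above 0 in 20 of 39 cells, at 1 CPM or more in 14 (35.9%, exact Clopper-Pearson 95% interval 21.2% to 52.8%) and at 100 CPM or more in 7 (17.9%, interval 7.54% to 33.5%). These intervals cover the choice of cells alone. The highest level was 5160 CPM in cell 22, followed by 4184 CPM in cell 25. Cell 11 had 1593 CPM and cell 16 had 769 CPM. The remaining cells past 100 CPM were cell 21 with 218 CPM, cell 15 with 189 CPM and cell 14 with 111 CPM. The 7 cells thus spanned a 46.4-fold range, and they held 99.7% of all Pkhd1 signal summed over the 39 cells, with 76.2% in cells 22 and 25.

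Below 100 CPM the levels fell away with a wide gap. The nearest cell under the threshold was cell 18 with 20.8 CPM, and cell 26 followed with 7.63 CPM. The other 5 cells above 1 CPM were cell 1 (2.95 CPM), cell 19 (2.40 CPM), cell 12 (2.31 CPM), cell 10 (1.95 CPM) and cell 24 (1.72 CPM). A further 6 cells had less than 1 CPM but more than 0. Cell 28 was the highest of them, at 0.686 CPM, and cell 32 the lowest, at 0.123 CPM. Pkhd1 was listed at 0 in 19 cells. The median of the 14 cells above 1 CPM was 66.0 CPM, inside the gap, so it moved to 116 CPM when each cell was rescaled to a sum of 1000000 and 1 cell dropped under 1 CPM.

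Low values of a cell repeat at multiples of a step that was taken as the worth of 1 read, and Pkhd1 followed it. In all 12 cells with fewer than 100 Pkhd1 reads the value lay within 2% of 1 read of a whole number, from 2 reads in cell 17 to 55 in cell 26, and cell 18 had 276. The 7 highest cells stood at an estimated 1315 to 51851 reads. By exact Poisson intervals on these reads, neighbours in the order were apart from cell 22 down to cell 1, and each of the next 10 neighbouring pairs overlapped, so neighbours from cell 1 downwards are not told apart. As the reads carry no known molecular identifiers they are not separate molecules, and the intervals cover counting error only. In the 17 cells listed at 0 whose step could be read, 3 reads would be 0.0723 to 0.818 CPM. Cells 38 and 39 were also listed at 0, with no usable step.

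**Figure D1:**
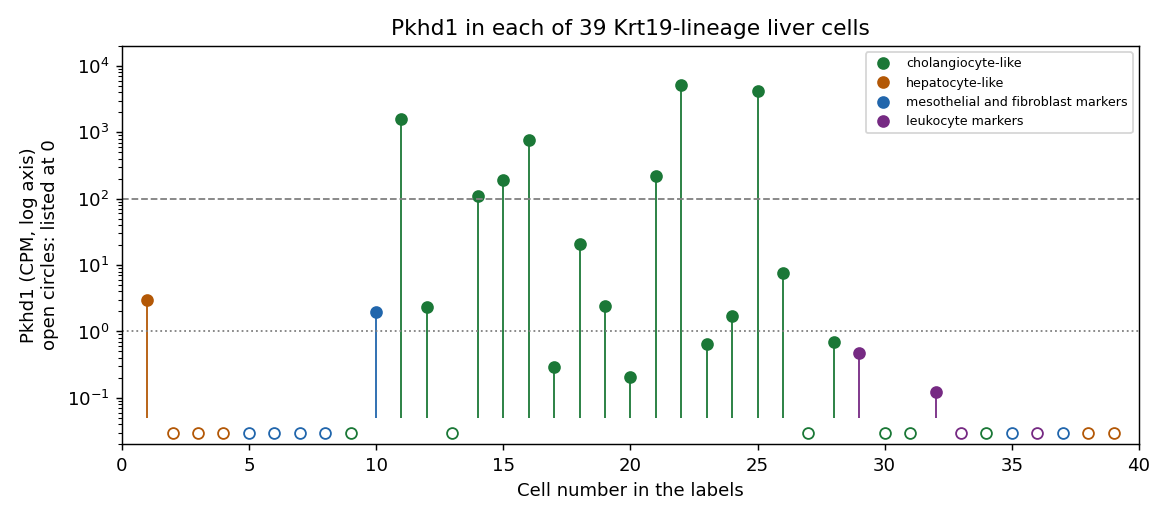
Pkhd1 in CPM on a log axis for each of 39 cells by the number in its label, coloured by marker group, with dashed and dotted lines at 100 and 1 CPM and open circles for cells listed at 0. The 7 points over the dashed line lie between cells 11 and 25 and are all cholangiocyte-like, and the highest point outside that group is cell 1 at 2.95 CPM.

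Which kind of cell held Pkhd1 was read from groups made without it. Clustering on 94 cell type markers, with Pkhd1 and the cilium genes left out, gave 4 groups. A group of 22 cells was cholangiocyte-like, led by Spp1, Tm4sf4, Cdh1, Hbegf, Krt18 and Clu. A group of 6 was hepatocyte-like, led by major urinary protein genes, Apoa1 and Serpina3k. The third, with 7 cells, mixed mesothelial genes (Nkain4, Lrrn4) with fibroblast genes (Dcn, Col1a2, Col3a1), and the fourth, with 4, held granule and leukocyte genes such as Elane and Arhgdib, and neither was named.

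All 7 cells at 100 CPM or more were cholangiocyte-like, which is 31.8% of the 22 (interval 13.9% to 54.9%), against 0 of the 17 other cells (up to 19.5% by the same interval). At 1 CPM the counts were 12 of 22 (32.2% to 75.6%) and 2 of 17 (1.46% to 36.4%), and at any value above 0 they were 16 and 4. Outside the cholangiocyte-like group the highest levels were 2.95 CPM in hepatocyte-like cell 1, 1.95 CPM in cell 10 of the mesothelial and fibroblast marker group, and 0.468 CPM in cell 29 of the leukocyte marker group. Of the 9 cholangiocyte-like cells with Pkhd1 between 0 and 100 CPM, 7 were at or under that 2.95 CPM and only cells 18 and 26 were over it. Within the cholangiocyte-like group the gene was high in 7 cells, intermediate in 2, at the level also seen in other groups in 7, and listed at 0 in 6. Clustered by average linkage on Spearman correlation instead, the group richest in cholangiocyte markers held 14 cells with 5 of the 7, and the other 2 fell in other groups.

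The 7 high cells were not set apart by cholangiocyte markers or by depth. They held 5 to 12 of the 18 measured cholangiocyte markers at 100 CPM (median 9), against 6 to 13 (median 10) in the 15 other cholangiocyte-like cells. Their estimated totals were 7470000 to 23500000 reads, against 6540000 to 19200000. They reached 100 CPM for 595 to 1196 genes with a median of 688, while the 15 others had 581 to 1175 with a median of 939. The share of Rn45s, the ribosomal RNA precursor, was 8.42% to 22.0% in the 7 (median 13.7%) and 10.4% to 31.2% in the 15 (median 18.5%). The CPM of a cell summed to 687494 to 1625437 in the 7 (median 1494768) and to 626358 to 3128332 in the 15 (median 1042188). Each pair of ranges overlaps, and the part of these differences in the Pkhd1 pattern was not tested. The cell numbers also differ, since the 7 lie between 11 and 25 and none of cells 26 to 39 reached 100 CPM. What a cell number stands for is not given in the labels.

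Pkhd1 is a long transcript, which matters when its level is set beside other genes. The GENCODE M21 transcript matched to its RefSeq accession has 12935 bases, longer than 99.3% of the measured transcripts with a length. Among genes at 1 CPM with a known length, Pkhd1 ranked 59 of 2577 by CPM in cell 22 and 44 of 2626 in cell 25. By CPM per kilobase its ranks there were 287 and 478. In cell 14, the lowest of the 7, the ranks were 606 by CPM and 945 by CPM per kilobase, among 2293 genes.

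Krt19, the keratin whose promoter drives the label, was present in high and low Pkhd1 cells alike. Among the 7 high cells it was 796 CPM in cell 22, 271 CPM in cell 11, 184 CPM in cell 21, 80.4 CPM in cell 14 and 44.6 CPM in cell 25, while cells 15 and 16 had no Krt19 reads. It reached 100 CPM in 3 of the 7 and in 8 of the 15 other cholangiocyte-like cells. Cell 24, with the highest Krt19 of all at 20676 CPM, had 1.72 CPM of Pkhd1.

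Spp1, encoding the secreted protein osteopontin, was abundant in every high cell. It ranged from 7163 to 83095 CPM there with a median of 33230 CPM, and from 149 to 45368 CPM with a median of 12796 CPM in the 15 others, so the ranges overlap. Tm4sf4, a tetraspanin relative of epithelia, had 183 to 9604 CPM in the 7 and 46.2 to 13198 CPM in the 15. Alb, encoding albumin, reached 100 CPM in 5 of the 7 and in 8 of the 15, with medians of 7438 CPM and 564 CPM. Hepatocyte markers as a list stood at 2 to 5 of 30 at 100 CPM in the 7 (median 4), with a summed level of 1915 to 31156 CPM, and at 0 to 13 in the 15 (median 2), with 20.1 to 42873 CPM. The medians of Alb and of this list were thus higher in the 7 while the ranges overlap, and their part in the Pkhd1 pattern was not tested. The 4 cholangiocyte-like cells with 10 or more of these markers, cells 27, 28, 30 and 31, had at most 0.686 CPM of Pkhd1, a pairing noticed after the values were seen.

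Pkhd1l1 encodes fibrocystin-L, the closest relative of fibrocystin, and was found in other cells. Its GENCODE transcript has 12949 bases, so the 2 genes can be set side by side in CPM. It reached 2421 CPM in cell 8, 1118 CPM in cell 10, 767 CPM in cell 5 and 293 CPM in cell 37. All 4 belong to the mesothelial and fibroblast marker group, whose 7 cells were all above 1 CPM. In the cholangiocyte-like cells its highest value was 1.96 CPM, in cell 9, where Pkhd1 was listed at 0. Only cell 10 had both genes at 1 CPM or more, with Pkhd1 at 1.95 CPM, and no cell had both at 100 CPM.

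**Figure D2:**
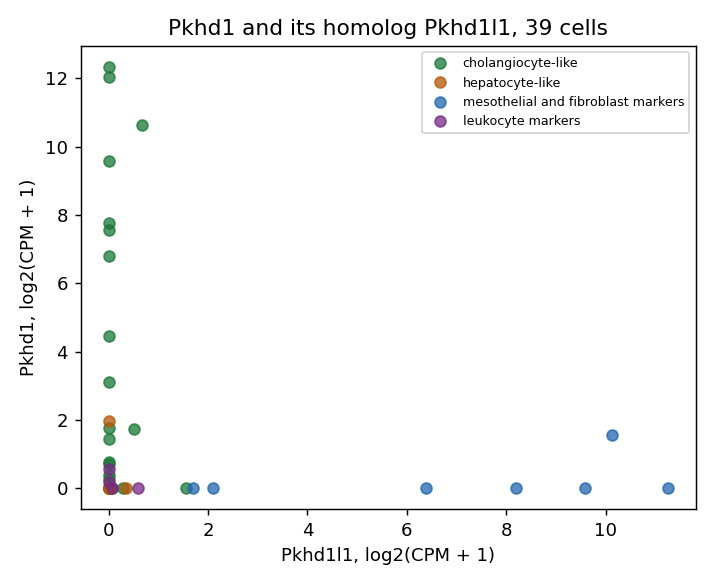
Pkhd1 against Pkhd1l1 as log2(CPM + 1), 1 point per cell, coloured by marker group. High Pkhd1 points lie along the vertical axis and are cholangiocyte-like, high Pkhd1l1 points lie along the horizontal axis and carry mesothelial and fibroblast markers, and cell 10 is the single point with both genes above 1 CPM.

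The gene lists below hold known parts of the pathway, and each gene's count of cells at 100 CPM among the 7 high cells was set beside that among the 15 other cholangiocyte-like cells. Over all 3614 genes at 100 CPM in at least 4 of the 39 cells, 40.3% reached 100 CPM in a higher share of the 7 than of the 15, with a median difference of -5.71 percentage points. Of the polycystic disease list 14 of 16 genes were measured. Apart from Pkhd1, 10 could be compared in this way, and 4 had the higher share in the high cells, with a median difference of -2.86 points.

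Pkd1, encoding the large receptor polycystin-1 that is mutated in dominant polycystic kidney disease, was sparse in all groups, at 100 CPM in 1 of the 7 high cells, 1 of the 15 other cholangiocyte-like cells and 2 of the 17 outside. In the high cells it was 321 CPM in cell 14 and at most 0.242 CPM in the other 6. Its highest level was 3535 CPM in cell 26, where Pkhd1 was 7.63 CPM. Pkd2, encoding the channel polycystin-2, was 23.1 CPM in cell 15 and 3.86 CPM in cell 14, under 1 CPM in the other 5, and reached 100 CPM in 3 cells, of which 1 was cholangiocyte-like. No cell held Pkhd1, Pkd1 and Pkd2 together at 100 CPM. With Pkd1 at that level in 4 cells and Pkd2 in 3, this absence says little about the genes.

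Bicc1, encoding an RNA-binding protein whose loss gives cystic kidneys, was at 100 CPM in more of the 7 high cells than any other gene of this list besides Pkhd1. In the high cells it was 8847 CPM in cell 21, 3194 CPM in cell 22, 1962 CPM in cell 14 and 204 CPM in cell 25, while it was 25.9 CPM in cell 15, 0.994 CPM in cell 16 and listed at 0 in cell 11. It reached 100 CPM in 4 of the 7, 7 of the 15 and 2 of the 17 cells outside the group. Glis3, a zinc finger factor of the same disease family, reached it in 2 of 7, 9 of 15 and 1 of 17, and Glis2 in 2, 3 and 2. Lrp5, a Wnt co-receptor tied to polycystic liver, was 1876 CPM in cell 25 and under 1 CPM in the other 6 high cells.

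Genes of polycystic liver disease that act in the endoplasmic reticulum, where membrane proteins such as fibrocystin are made, were not concentrated in the high cells. Ganab, a glucosidase subunit, reached 100 CPM in 1 of the 7 (1837 CPM in cell 22) and in 5 of the 15. Sec61b, of the translocation channel, did so in 1 and 3, Prkcsh in 0 and 1, Sec63 in 0 and 1, and Dnajb11 in 0 and 2. The Sec61b count turns on the threshold, since cell 25, of the 7, had 99.0 CPM. Sec61b was more widespread outside the group, at 100 CPM in 12 of 17 cells.

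Most of the measured cilium genes reached 100 CPM in few cells. Of the intraflagellar transport list, the motors and trains that build the cilium, 13 of 23 genes were measured and 3 could be compared. Of these 2, Ift20 and Kifap3, had the higher share in the high cells. Ift43 went the other way, at 100 CPM in 0 of 7 and 3 of 15. Dync2h1, Ift172 and Kif3a reached 100 CPM in too few cells to be compared. Dync2h1, the heavy chain of the dynein that returns cargo from the cilium tip, was 6338 CPM in cell 22 and 1099 CPM in cell 25, the 2 cells with the most Pkhd1. It was at most 2.16 CPM in the other 5, and cell 34, where Pkhd1 was listed at 0, had 5966 CPM. Ift20, a train subunit that also sits at the Golgi, was 2109 CPM in cell 22 and 316 CPM in cell 21. It was more widespread outside the cholangiocyte-like group, at 100 CPM in 8 of 17 cells, against 2 of 7 and 2 of 15. Ift172 was 636 CPM in cell 11. The kinesin gene Kif3a reached at most 5.39 CPM in the high cells.

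Of the transition zone and ciliary membrane list 6 of 26 genes were measured. Invs, encoding inversin, passed 100 CPM in a single cell, cell 11, with 133 CPM. Arl3, a small GTPase that releases lipid-bound cargo in the cilium, was 1528 CPM in cell 15 and 905 CPM in cell 21. It was the only member of that list that could be compared, and had the higher share in the high cells, 2 of 7 against 2 of 15. Of the BBSome list, a coat for ciliary membrane cargo, 4 of 11 were measured and none could be compared. Bbs1 was low but frequent, from 0.173 to 30.1 CPM in the 7 high cells and above 1 CPM in 18 cells.

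**Figure D3:**
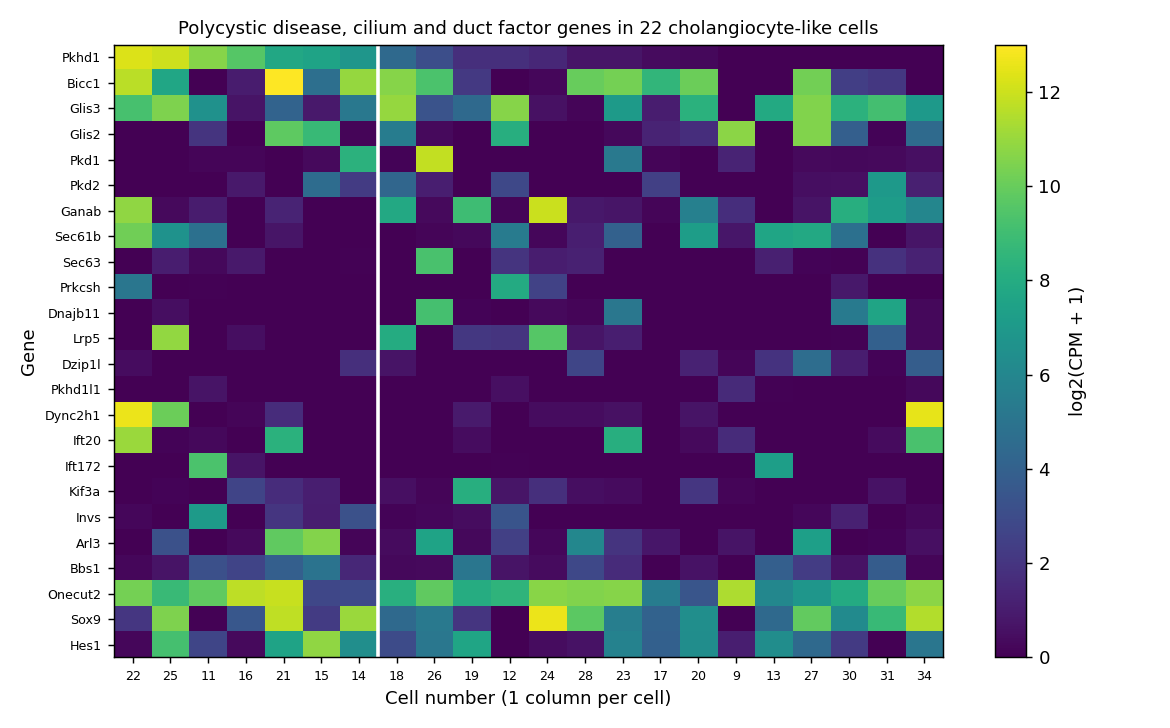
Levels of Pkhd1, polycystic disease genes, cilium genes and duct transcription factors as log2(CPM + 1) in the 22 cholangiocyte-like cells, ordered by falling Pkhd1, with a white line after the 7 cells at 100 CPM or more. Bicc1, Glis3 and Onecut2 are bright on both sides of the line, and Pkd1 is bright in cells 14 and 26 on either side of it.

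Reported partners and trafficking factors of fibrocystin were measured for 11 of 12 genes, and 2 of the 7 that could be compared had the higher share in the high cells, with a median difference of -6.67 points. Rab11a, a GTPase of recycling vesicles, was 3692 CPM in cell 11 and 118 CPM in cell 16. At 100 CPM were none of the 15 others but 6 of the 17 cells outside. Cell 23, of the 15, was just under that threshold at 99.9 CPM. Smurf2, a ubiquitin ligase, was 641 CPM in cell 21 and 575 CPM in cell 14, with 1 of the 15 at 100 CPM. Arf4, which sorts ciliary membrane proteins at the Golgi, reached 100 CPM in 2 of 7, 7 of 15 and 10 of 17. Furin, a proprotein convertase, did so in 2, 5 and 2. Rab8a, a GTPase of ciliary entry, reached 100 CPM in none of the 7.

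Transcription factors of duct and liver were measured for 20 of 24 listed genes. Of 11 compared, 7 had the higher share in the high cells and the median difference was 9.52 points, beside 40.3% and -5.71 points over all genes. Gata6, Onecut2, Hnf4a and Elf3 had the lower share. Of these Gata6 differed most, at 100 CPM in 0 of 7 and 5 of 15.

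Hes1, a target of Notch signalling, reached 100 CPM in 3 of the 7 high cells and 1 of the 15. It was 1836 CPM in cell 15, 572 CPM in cell 25, 184 CPM in cell 21 and 85.0 CPM in cell 14, and under 6 CPM in the other 3. The Hes1 counts turn on the threshold, since cells 20 and 13, of the 15, had 82.3 and 80.6 CPM. At 1 CPM they were 5 of 7 and 11 of 15. Sox9, a duct factor, was 3411 CPM in cell 21, 2126 CPM in cell 14 and 1422 CPM in cell 25, and at most 10.7 CPM in the other 4. It passed 100 CPM in 5 of the 15. Onecut2, a factor of liver and duct development, was widespread, at 100 CPM in 5 of 7 and 12 of 15, and above 1 CPM in all 22. Prox1 and Foxa1 each reached 100 CPM in 2 of 7 and 2 of 15.

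Bile transport and fluid secretion genes were measured for 19 of 25, and 2 of 6 compared genes had the higher share. Ano1, a chloride channel, reached 100 CPM in 1 of 7 and 4 of 15, and Aqp1, the water channel, in 1 and 3. Of the polarity and tight junction list 17 of 22 were measured and 5 of 12 had the higher share, with a median difference of -6.19 points. Cldn4, a claudin of tight epithelia, was 3565 CPM in cell 25, 982 CPM in cell 21, 404 CPM in cell 22 and 160 CPM in cell 15, and it reached 100 CPM in 7 of the 15 and none of the 17. Cldn7 reached it in 1 of 7 and 9 of 15, and Tjp1, a junction scaffold, in 0 of 7 and 5 of 15. These 2 counts are low in the high cells, and no test of the difference was made. The Tjp1 count turns on the threshold, since cells 18, 28 and 30, of the 15, had 105, 103 and 120 CPM. Cldn7 was just over it in cell 13 with 101 CPM and in cell 24 with 117 CPM.

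Markers of other cell types were few in the high cells. Mesothelial markers reached 100 CPM for at most 1 of 10 in any of them, with a summed level of up to 3406 CPM, and macrophage markers for at most 1 of 8. Fibroblast and stellate markers (10 measured), granulocyte markers (8), general leukocyte markers (5), T or NK cell markers (2), endothelial markers (2) and the single erythroid marker reached it for none. No B cell marker was measured. In the 15 others the highest counts were 3 mesothelial and 1 each of fibroblast, macrophage, general leukocyte and T or NK cell markers.

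Genes were then ranked by how far their cells at 100 CPM coincided with the 7 Pkhd1 cells, as the Jaccard overlap, the cells that hold both genes over the cells that hold either. The values rank genes after the fact over 39 cells of 1 labelled group that differ in depth, so they are a description with no test. The cells also differ in the share of Rn45s, at 0.383% to 1.22% in the hepatocyte-like cells and 8.42% to 31.2% in all other cells. What this difference stands for was not tested. Of 3614 genes, 39 (1.08%) reached 100 CPM in at least 50% of the 7 cells and in at most 25% of the 32 others. Within the 22 cholangiocyte-like cells alone the same rule gave 28 of 1757 (1.59%), and 22 genes were in both sets, 56.4% of the first and 78.6% of the second. Of the 39 genes 28 were in 4 of the 7 cells, 9 in 5 and 2 in 6, and each was also at 100 CPM in at least 1 other cell. Of the function lists they held 1 member, Cldn4.

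Ank3, encoding ankyrin-G, which ties membrane proteins to the cytoskeleton at the lateral membrane of epithelia, stood first. It was 3394 CPM in cell 14, 1767 CPM in cell 22, 725 CPM in cell 21, 502 CPM in cell 16, 131 CPM in cell 15, 129 CPM in cell 25 and 11.4 CPM in cell 11. It reached 100 CPM in 6 of the 7, 5 of the 15 and none of the 17 cells outside, a Jaccard overlap of 0.50. Its Spearman rho with Pkhd1 was 0.75 over 39 cells and 0.67 within the 22 cholangiocyte-like cells. Ank3 was thus present in most high cells but also at 654 CPM in cell 23, where Pkhd1 was 0.644 CPM.

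Mob3b, a kinase adaptor of the MOB family, shared the top overlap of 0.50. It was 1047 CPM in cell 21, 984 CPM in cell 11, 971 CPM in cell 22, 294 CPM in cell 15 and 224 CPM in cell 16, but under 7 CPM in cells 14 and 25, and cell 19 of the others had 5193 CPM. Sap18, of the SIN3 repressor and splicing complexes, was the third at 0.50, with 5743 CPM in cell 16, 2009 CPM in cell 22, 380 CPM in cell 14 and 114 CPM in cell 21. It reached 100 CPM in none of the 15 other cholangiocyte-like cells, and in cell 32 outside. Wbp2, a transcriptional coactivator, was at 100 CPM in 5 of 7, 1 of 15 and 3 of 17, an overlap of 0.455 over all cells and the highest, 0.625, within the cholangiocyte-like cells.

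Xist, the non-coding RNA that silences an X chromosome in female cells, followed with an overlap of 0.417. It was 5463 CPM in cell 21, 4413 CPM in cell 15, 742 CPM in cell 16, 660 CPM in cell 25 and 346 CPM in cell 14, and 3.08 CPM or less in cells 22 and 11. The Y-linked genes Ddx3y, Eif2s3y and Uty summed to at most 5.53 CPM in the 7 (median 0.525 CPM). In the 15 others they summed to between 0 and 1568 CPM (median 17.7 CPM), so the ranges overlap. Strand use in counting is not stated, so reads of Xist and of its antisense partner Tsix cannot be told apart. The animals are not named, and their part in the Pkhd1 pattern was not tested.

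Tgtp1, an interferon-induced GTPase, also reached 0.417, with 9942 CPM in cell 22 and 9775 CPM in cell 16. It has a near-identical copy, Tgtp2, so the split of reads between the 2 is uncertain. Enc1, an actin-binding protein, was at 100 CPM in 6 of 7 and 7 of 15. Sgk1, a kinase that raises the surface level of ion channels, was 4709 CPM in cell 21, 3515 CPM in cell 22, 2311 CPM in cell 16 and 504 CPM in cell 15, with 2 of 15 others at 100 CPM. Sec11a, the catalytic subunit of signal peptidase, was at 100 CPM in 5 of 7, 2 of 15 and 4 of 17. The remaining genes of the first 15 were Mfsd4, Eif4a2, Sltm, Med28, Gcc2 and Psme1, each in 4 of the 7 and in 3 cells elsewhere. Within the cholangiocyte-like cells Arl8b, a lysosomal GTPase, was in 4 of 7 and 0 of 15 and was frequent outside (6 of 17), while Pigr, the receptor that carries IgA into bile, and Prrc2a were each in 6 of 7 and 4 of 15.

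**Figure D4:**
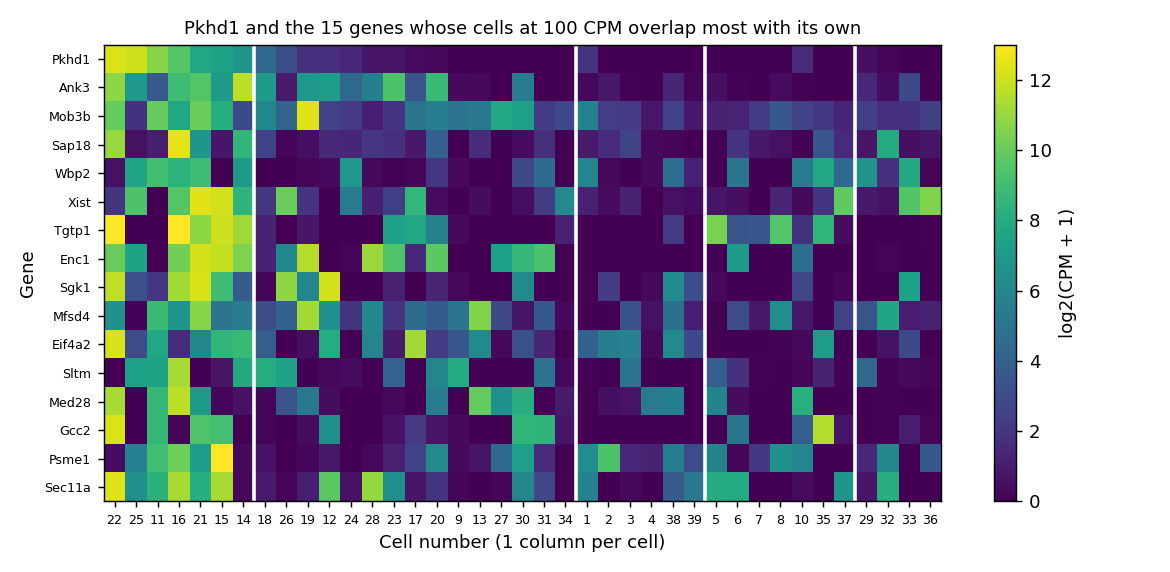
Pkhd1 and the 15 genes with the highest Jaccard overlap as log2(CPM + 1) in all 39 cells, with white lines after the 7 Pkhd1-high cells, the 15 other cholangiocyte-like cells, the 6 hepatocyte-like cells and the 7 cells with mesothelial and fibroblast markers. The genes were picked for the pattern left of the first line, and no gene but Pkhd1 is at 100 CPM in all 7 columns there.

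Ranking by Spearman rho gave mostly other genes, because it also reads values far below 100 CPM. Kcnk1, a potassium leak channel, was first with a rho of 0.78 over 39 cells and 0.66 within the 22, though only cells 25 (3696 CPM) and 16 (2750 CPM) of the 7 passed 100 CPM. Kcne3, a potassium channel subunit of secretory epithelia, had 0.75 over all cells and 0.53 within the 22, with no high cell past 41.5 CPM. Ank3 was the third. The others were 5330417C22Rik, Fos, Sfn, Sh3bp4, Itga5, Enc1 and Pamr1, with 0.70 to 0.63 over all cells and 0.72 (Fos) to 0.23 (Pamr1) within the 22. Pooled values mix the marker groups, since Pkhd1 is at or near 0 outside the cholangiocyte-like cells, and both kinds of value are over cells of unequal depth.

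Fos, an immediate early gene also raised by tissue dissociation, was high in all 7 cells. It ranged from 3508 to 17571 CPM with a median of 9847 CPM, against 2.32 to 11808 CPM with a median of 2488 CPM in the 15 others, so the ranges overlap. Of 21 genes at 100 CPM in all 7 cells, 11 were also at 100 CPM in all 15 others. The one with the fewest others was Jund, another AP-1 gene, with 154 to 930 CPM in the 7 and 7 of the 15 at 100 CPM. Atf3, Btg2, Egr1 and Fosb, of the same early response, were in all 7 and in 10, 11, 12 and 13 of the 15. Fos and Junb were each in 14 of the 15 and Jun in all 15, so these hardly differed at 100 CPM. The part of this response in the Pkhd1 pattern was not tested.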

How the data were processed

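The values are log2 expression per RefSeq transcript and cell as deposited by the authors. Bowtie 0.12.9, eXpress 1.5.1, edgeR and mm9 are named in the submitters' processing notes, without roles or settings. Here the shared floor of -2.58 (0.167 on the linear scale) was taken as no reads, and the linear value above it is called CPM. The log base and the scale are read from these values, as no header gives them. These summed to 351255 to 3128332 per cell and were used as deposited, with 13568 transcripts summed to 10061 symbols. The rarest transcript passed 0.5 CPM in 2 cells, and any rarer are not analysed here. The worth of 1 read was the most frequent low value of a cell, accepted in 37 cells, where 31.0% to 51.9% of low values were whole multiples to a tolerance of 2% of a read. By it the cells held 2200000 to 36700000 reads. No pair of cells held identical values, no doublet caller was run and no cell was removed.

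Groups came from Ward linkage on log2(CPM + 1) of 94 measured markers, with 2 to 6 groups of at least 3 cells and the highest silhouette (0.396). A group was named if every cell had 3 or more markers of the list at 100 CPM and no other list's marker was among its 10 leading genes. Candidates for accompanying genes had 100 CPM in at least 4 cells. Genes were named by the 15 highest Jaccard overlaps over all cells, the 10 highest within the cholangiocyte-like cells, the 10 highest Spearman rho, and membership of 8 function lists (102 measured genes besides Pkhd1) and 11 marker lists. Jund, Atf3, Btg2, Egr1, Fosb, Spp1, Tm4sf4, Alb and the Y-linked genes were added after their values were seen. The member and the lists were chosen with earlier results of these data known. The co-occurrence script was tested on simulated data. Lengths came from GENCODE M21 (98.4% of transcripts matched). Some genes of the lists and the promoter are not reported here. Python 3.11.15, numpy 2.4.6, pandas 2.3.3, scipy 1.17.1 and scikit-learn 1.9.0 were used.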

Additional observations from a re-analysis of the deposited data

How the results depend on the processing

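Of 47 alternative values, 38 stayed within the interval, spread or 1.5-fold range set for them. The same 7 cells were at 100 CPM when each cell was rescaled to a sum of 1000000, with or without Rn45s, Lars2 and Rorb (the latter chosen after seeing the data). Taking the highest transcript row in place of the sum could not change Pkhd1, which has 1 row. Leaving out cells 38 and 39, both listed at 0, could not change its numbers of cells. These fixed outcomes are counted among the 38 values and say nothing about stability. At 10 CPM in place of 1 CPM, Pkhd1 was counted in 8 cells. At 200 CPM it was in 5, and the accompanying genes rose from 39 to 61, of which 22 were among the 39. At 50 CPM 24 of 45 were. Leaving out each of the 7 cells in turn, also added later, gave 106 to 119 accompanying genes, since 50% of 6 cells is 3 cells where 50% of 7 required 4. Without cells 38 and 39 there were 29. The membership of that set therefore depends on the thresholds, while the cells with high Pkhd1 did not change under rescaling. No paired analysis was possible because the cells form 1 group. Levels under about 3 CPM also occurred in cells of other marker groups, which limits what a low value shows.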

Other observations

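Kcne3 and Pkhd1 were high in different cholangiocyte-like cells, a pattern picked after the values were seen. Kcne3 reached 100 CPM in 5 cells, from 558 to 2020 CPM. Pkhd1 in those 5 cells, numbers 12, 18, 19, 23 and 26, was 0.644 to 20.8 CPM, and they include cells 18 and 26, the 2 cells with Pkhd1 between 3 and 100 CPM. In the 7 cells with Pkhd1 at 100 CPM or more, Kcne3 was at most 41.5 CPM. By rank the pair still rose together, with a Spearman rho of 0.75 over all cells and 0.53 within the cholangiocyte-like cells. Gata6 and Tjp1 had the same counts, at 100 CPM in 0 of the 7 and 5 of the 15 other cholangiocyte-like cells. How many further genes share no cell at 100 CPM with Pkhd1 was not counted, so whether the separation of Kcne3 is unusual is not known.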
